A study of Mus musculus with 10 samples.

Results

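The stretch of mouse chromosome 8 that holds Irf8, Fendrr and Foxf1 was examined in sections of lung and brain, with Irf8 toward the lower coordinates and Foxf1 toward the higher ones. Its members were all peaks of open chromatin lying wholly within a fixed window of 600000 bp (build mm10) around these genes, which held 31 of the 37511 nuclear peaks in the table. They are called peaks 1 to 31 in the order of their coordinates. Irf8 lies at chr8:120736358-120756694, Fendrr at chr8:121054882-121083110 and Foxf1 at chr8:121084386-121088154, on RefSeq gene models of the same assembly. The window was selected on the measured brain and lung levels, because peaks near Foxf1 were already known to be higher in lung, so the differences between the tissues are given below as a description and support nothing. All 31 peaks passed the filter of at least 10 reads summed over the libraries, so none was lost to it.

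Chromatin accessibility was read by ATAC-seq, in which the transposase Tn5 cuts open DNA and inserts sequencing adapters there. Tn5 was applied to fresh frozen sections of wild-type C57BL/6J mice, an inbred strain, and nuclei picked at random were afterwards cut out of the sections with a laser microscope. A library held either 50 nuclei captured one at a time or 10 captured areas of about 20 nuclei each, some 200 nuclei in all, with 3 lung libraries and 2 brain libraries of each kind. Capture mode and nucleus number changed together, so their parts cannot be told apart. The repeats are described as technical in the labels, and nothing ties a library to an animal, so p-values measure only the spread between these libraries. The captured cells were not sorted by type, and in such mixtures fewer cells of a type and less open chromatin per cell cannot be told apart.

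Foxf1 encodes a forkhead transcription factor of the lung mesenchyme and of the lung's capillary endothelium, and it is switched on by Hedgehog signals from the airway epithelium during development. Fendrr is a long noncoding RNA gene that starts next to Foxf1 and is transcribed away from it. In people, deletions of noncoding DNA far upstream of FOXF1 that spare the gene itself are found in alveolar capillary dysplasia, a lethal disorder of the lung vessels. Irf8, the next gene of well-studied function on that side, encodes an interferon regulatory factor of dendritic cells, macrophages and microglia that is induced by interferon gamma.

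The sequences under the peaks at the starts of Irf8 and Fendrr are shown because these peaks mark each gene's own start in the data. They come from the RefSeq promoter windows of GRCm38.p6, the assembly of mm10, which hold 250 bases before and 50 bases after a gene's start and included 2 of the 3 genes, Irf8 and Fendrr. The Irf8 sequence is peak 9 up to the base before the annotated start (chr8:120736161-120736357, plus strand, 197 bases). The Fendrr sequence is the whole of peak 24 (chr8:121083104-121083332, minus strand, 229 bases). Both read 5′ to 3′ in the direction of the gene, and capitals mark the motif matches described next.
Irf8: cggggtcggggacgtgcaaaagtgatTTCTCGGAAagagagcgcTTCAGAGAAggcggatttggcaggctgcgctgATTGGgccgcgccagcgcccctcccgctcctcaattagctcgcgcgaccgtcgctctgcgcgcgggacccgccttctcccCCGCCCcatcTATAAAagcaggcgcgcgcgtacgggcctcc
Fendrr: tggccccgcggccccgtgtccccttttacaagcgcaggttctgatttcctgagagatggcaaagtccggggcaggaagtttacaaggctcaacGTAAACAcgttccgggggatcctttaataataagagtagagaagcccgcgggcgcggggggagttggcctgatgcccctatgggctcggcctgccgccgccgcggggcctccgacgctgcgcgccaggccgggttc

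Exact matches to 11 motifs were sought on both strands of the 300-base windows. These were CCAAT (bound by NF-Y), TATAAA (core promoters), GGGCGG (the GC box), CCGGAAG (the ETS core), GTAAACA (forkhead factors), AGATAA (bound by GATA factors), GACCACCCA (GLI factors), TTCNNNGAA (the gamma-activated site), TGANTCA (AP-1), GGAATG (TEAD factors) and AGGTGTGA (T-box factors). The Irf8 sequence held 2 copies of TTCNNNGAA, starting 171 and 153 bases before the gene's start, and 8.30% of the 32851 promoter windows in the table held at least 1. It also held TATAAA 31 bases before the start (in 13.6% of windows), a GC box on the opposite strand 41 bases before it (35.7%) and CCAAT, also on the opposite strand, 121 bases before it (37.4%). In the Fendrr sequence the single match was the forkhead motif GTAAACA, 129 bases before the start, which 3.65% of windows held. None of the matches overlapped another. The remaining motifs, of which CCGGAAG was in 8.86% of all windows, AGATAA in 11.2%, GACCACCCA in 0.253%, TGANTCA in 7.81%, GGAATG in 14.7% and AGGTGTGA in 1.28%, had no match in either window. Both windows were rich in the dinucleotide CG, with 38 in the Irf8 window and 31 in the Fendrr window against a median of 7 over all windows. A match is a run of letters and not a measured binding site.

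Levels are printed in RPM, the reads of a peak per 1000000 nuclear-peak reads of its library, which leaves out mitochondrial DNA. Nuclear reads numbered 340697 to 3075377 per lung library and 319307 to 465489 per brain library, after a mitochondrial share of 24.7% to 58.0% in lung and 93.4% to 95.8% in brain. The 31 peaks held 263 to 3336 reads per lung library and 108 to 188 per brain library. A count of 0 allows up to 3 reads, which is 0.975 to 8.81 RPM in lung and 6.44 to 9.40 RPM in brain, and this covers counting error only. A level under 6.44 RPM in a brain library therefore rests on fewer than 3 reads. Lung 50-nuclei replicates 2 and 3 stood apart from the other libraries, with at least 1 read in 60.9% and 56.1% of all nuclear peaks, and in 21 and 18 of the 31 members. The other lung libraries had a read in 28 to 30 members and the brain libraries in 25 to 30.

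**Figure D1:**
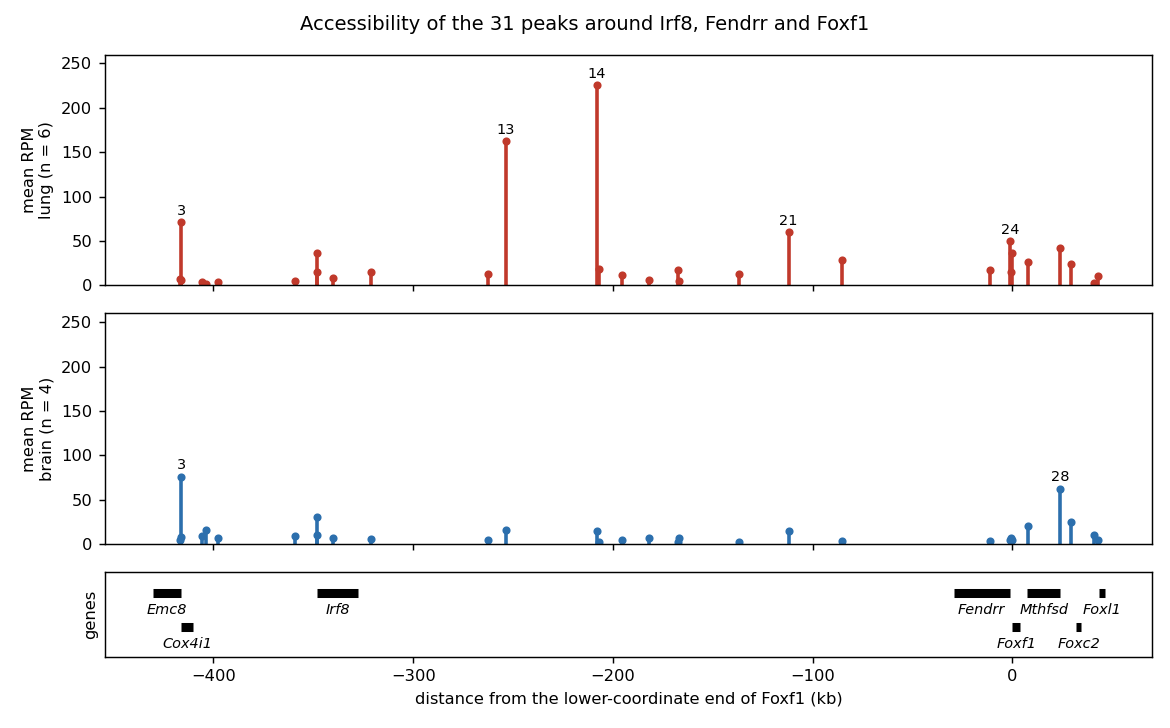
Mean level of each of the 31 peaks in lung (top, 6 libraries) and brain (middle, 4 libraries), in RPM, against the distance in kb from the lower-coordinate end of Foxf1, with the bodies of 8 coding or named genes below. In lung the tallest points are peaks 13 and 14, at 162 and 226 RPM, in the stretch between Irf8 and Fendrr; in brain they are peak 3 at 76.0 RPM and peak 28 at 62.5 RPM, at the ends of other genes.

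The members fell into 5 zones, from lower to higher coordinates: 7 peaks before Irf8, 3 in and just before Irf8, 12 in the interval between Irf8 and Fendrr, 4 at Fendrr and Foxf1, and 5 beyond Foxf1. Lung and brain differed zone by zone. Summed over the interval, lung had 575 ± 126 RPM (SD, n = 6) and brain 86.8 ± 53.6 RPM (SD, n = 4), a 6.62-fold ratio. Summed over Fendrr and Foxf1, lung had 120 ± 37.6 RPM (SD, n = 6) and brain 20.4 ± 14.0 RPM (SD, n = 4), a 5.87-fold ratio. In both of these zones every lung library lay above every brain library, with interval sums of 407 to 711 RPM in lung and 55.2 to 167 RPM in brain.

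The outer zones and the Irf8 zone did not separate the tissues. Before Irf8 the sums were 100.1 ± 30.0 RPM in lung (SD, n = 6) and 131 ± 25.5 RPM in brain (SD, n = 4). In the Irf8 zone they were 59.9 ± 32.9 RPM in lung (SD, n = 6) and 47.1 ± 17.4 RPM in brain (SD, n = 4), and beyond Foxf1 105 ± 48.2 and 123 ± 17.3 RPM. The libraries of lung and brain overlapped in each of these 3 zones. Over the whole window lung had 959 ± 196 RPM (SD, n = 6) and brain 409 ± 83.4 RPM (SD, n = 4), and the lowest lung library at 740 RPM lay above the highest brain library at 514 RPM.

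**Figure D2:**
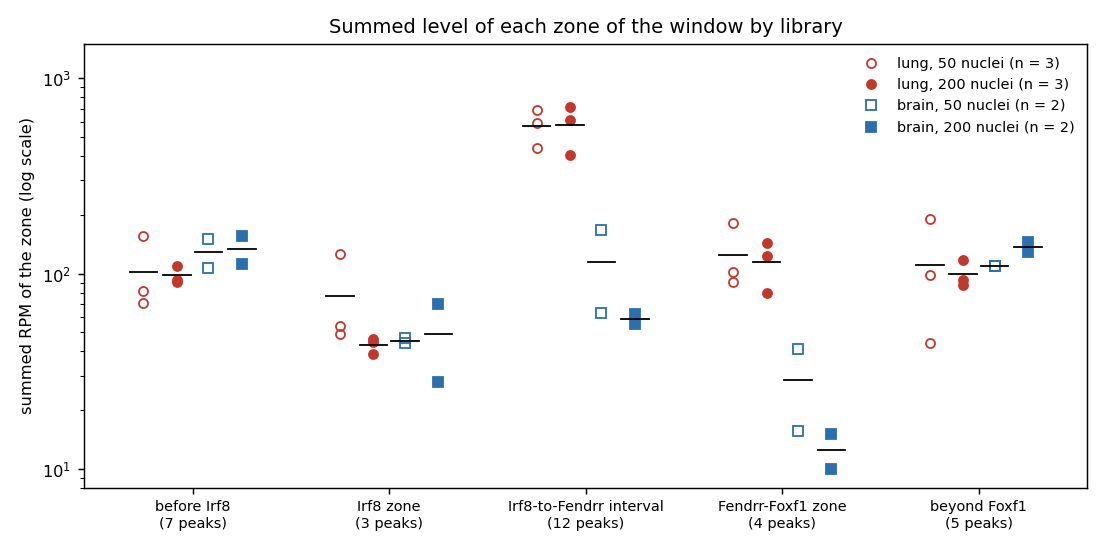
Summed RPM of each zone of the window in each library, on a log axis, with open circles for lung at 50 nuclei, filled circles for lung at 200 nuclei, open squares for brain at 50 nuclei, filled squares for brain at 200 nuclei, and short lines for group means. Lung and brain separate in the Irf8-to-Fendrr interval (407 to 711 RPM against 55.2 to 167 RPM) and at Fendrr and Foxf1 (79.2 to 181 RPM against 10.03 to 41.0 RPM), and overlap in the other 3 zones.

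The same split showed in the share of the window's reads, which does not depend on how deeply a library was sequenced. The interval held 54.5% to 65.5% of the window's reads in lung libraries and 12.6% to 32.4% in brain libraries. Its 95% Clopper-Pearson interval was 50.7% to 58.2% in the lowest lung library, lung 50-nuclei replicate 3, and 25.8% to 39.6% in the highest brain library, brain 50-nuclei replicate 1. Fendrr and Foxf1 held 10.7% to 14.3% of the window's reads in lung and 2.30% to 7.98% in brain. The Irf8 zone held 3.90% to 16.3% in lung and 8.07% to 16.1% in brain, with the top lung value in lung 50-nuclei replicate 2. Peaks 13 and 14 alone took 34.1% to 45.4% of the window's reads in lung (median 41.0%) and 4.02% to 11.7% in brain (median 6.50%).

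**Figure D3:**
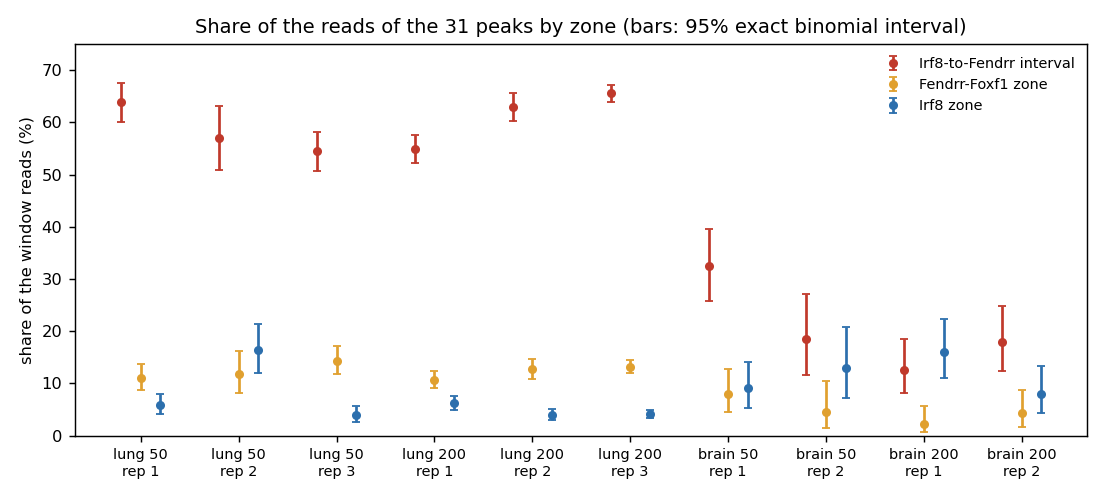
Percent of the reads of the 31 peaks that fell in the Irf8-to-Fendrr interval, at Fendrr and Foxf1, and in the Irf8 zone, for each library, with bars for the exact 95% binomial interval, which covers counting error only. The interval lies between 54.5% and 65.5% in the 6 lung libraries and between 12.6% and 32.4% in the 4 brain libraries.

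At Irf8 itself the chromatin was open in both tissues, at overlapping levels. Peak 9 covers the gene's start (chr8:120736161-120736401) and carries the sequence printed above. It gave 49.8, 47.0 and 36.5 RPM in the lung libraries of 50 nuclei, 27.7, 32.9 and 26.7 RPM in those of 200 nuclei, 35.6 and 25.1 RPM in brain at 50 nuclei and 40.1 and 21.5 RPM in brain at 200 nuclei. Lung and brain overlapped, and the fitted log2 fold of lung over brain was 0.23 ± 0.47 (SE). Per kb of peak the level was 153 RPM for lung libraries and 127 RPM for brain libraries. The peaks at the starts of Fendrr and Foxf1, described below, separated the tissues.

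The other peaks at Irf8 were sparse. Peak 8 (chr8:120735970-120736061), whose centre lies 343 bp before the gene, had 0, 79.2 and 0 RPM in lung at 50 nuclei and 7.76, 0 and 1.30 RPM in lung at 200 nuclei. In brain it had 8.21 and 12.5 RPM at 50 nuclei and 15.0 and 4.30 RPM at 200 nuclei. Its lung mean of 14.7 ± 31.8 RPM (SD, n = 6) rested on 1 library, lung 50-nuclei replicate 2, with 27 of the 45 lung reads. Peak 10 (chr8:120744010-120744100), inside the gene, had 8.39 ± 6.17 RPM in lung (SD, n = 6) and 6.55 ± 5.95 RPM in brain (SD, n = 4).

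Myeloid cells are the cells in which Irf8 is best known, and the brain has its own in the microglia. Peaks assigned to the 6 myeloid and microglia markers that had one, out of 9 (Csf1r, P2ry12, Aif1, Spi1, Tmem119 and Ptprc), summed to 132 to 203 RPM in lung libraries and 120 to 213 RPM in brain libraries. None of these 6 genes was at 0 in either tissue. Like peak 9, the list gave overlapping values in both tissues, and the part of myeloid cells in the level at Irf8 was not tested.

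A pair of intergenic peaks carried most of the lung signal of the interval. Peak 13 (chr8:120830632-120831200, 568 bp) lies 74.2 kb past Irf8 and 253.5 kb before Foxf1, and peak 14 (chr8:120876053-120876872, 819 bp) lies 119.8 kb past Irf8 and 207.9 kb before Foxf1. Neither overlapped an annotated gene: the nearest models were the long noncoding RNAs Gm39267, 20541 bp from peak 13, and Gm33368, 1865 bp from peak 14. They were the widest peaks of the window, in which the median width was 147 bp.

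Peak 13 gave 142, 150 and 203 RPM in lung at 50 nuclei and 124, 173 and 182 RPM in lung at 200 nuclei, against 32.8 and 9.40 RPM in brain at 50 nuclei and 12.5 and 8.59 RPM in brain at 200 nuclei. All lung libraries stood above all brain libraries, and the mean of 162 ± 28.8 RPM in lung (SD, n = 6) was 10.2-fold that of 15.8 ± 11.5 RPM in brain (SD, n = 4). Peak 14 gave 273, 144 and 228 RPM in lung at 50 nuclei and 146, 253 and 310 RPM in lung at 200 nuclei, against 27.4 and 9.40 RPM in brain at 50 nuclei and 5.01 and 17.2 RPM in brain at 200 nuclei. Its means were 226 ± 68.0 RPM in lung (SD, n = 6) and 14.7 ± 9.81 RPM in brain (SD, n = 4), a 15.3-fold ratio. Here, too, the tissues did not overlap.

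Lung levels of the pair did overlap each other, but both peaks were read in the same libraries. Within libraries, peak 14 was above peak 13 in every lung library except 50-nuclei replicate 2, with 144 against 150 RPM. The order was not tested. Per kb of peak the mean lung levels of the pair were nearly equal, at 286 RPM for peak 13 and 276 RPM for peak 14. These were the highest lung levels per kb in the window. Among all 37511 nuclear peaks, peak 14 ranked 276th and peak 13 668th by lung RPM, the top 0.736% and 1.78%. A set of 3001 nuclear peaks lay outside coding genes and the genes in the lists below, and at least 50 kb from their ends. Within this set peak 14 ranked 3rd and peak 13 6th by lung RPM. In brain the same peaks ranked 16986th and 16049th, in the middle of the table.

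Further along the interval toward Fendrr, peak 21 (chr8:120972041-120972495, 454 bp) lies 112.1 kb before Foxf1. Its levels were 41.2, 8.81 and 100.4 RPM in lung at 50 nuclei and 67.6, 63.7 and 78.4 RPM in lung at 200 nuclei, against 19.2 and 12.5 RPM in brain at 50 nuclei and 17.6 and 8.59 RPM in brain at 200 nuclei. A single lung library, 50-nuclei replicate 2 with 8.81 RPM, fell within the brain range, while the other 5 lay above it. Peak 22 (chr8:120999042-120999233), 85.2 kb before Foxf1, had 9.97 to 76.7 RPM in lung (median 14.6) and 0 to 8.21 RPM in brain (median 4.21). Its lung libraries all lay above its brain libraries, although the 6 brain reads behind the brain levels were few.

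The remaining 8 peaks of the interval (11, 12 and 15 to 20, of which only peaks 18 and 19 overlap a gene, the long noncoding RNA gene Gm33471) were low in both tissues. Their lung means ran from 4.63 RPM at peak 19 to 18.3 RPM at peak 15, and their brain means from 2.09 RPM at peak 15 to 7.41 RPM at peak 19. Peak 15, whose centre lies 120.5 kb past Irf8 and thus beside peak 14, had 167 reads in lung and 3 in brain. Beyond peak 22, no peak was listed for 74.1 kb, up to peak 23 inside Fendrr, which was the widest gap between neighbouring members.

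At the shared upstream side of Fendrr and Foxf1, peaks 24, 25 and 26 lay close together, and all 3 had higher means in lung. Peak 24 at the start of Fendrr gave 45.5, 64.6 and 93.1 RPM in lung at 50 nuclei and 21.1, 43.9 and 33.5 RPM in lung at 200 nuclei, against 10.9 and 3.13 RPM in brain at 50 nuclei and 0 and 4.30 RPM in brain at 200 nuclei. The tissues did not overlap, and the means of 50.3 ± 25.4 RPM in lung (SD, n = 6) and 4.59 ± 4.61 RPM in brain (SD, n = 4) stood in a 10.9-fold ratio that rests on 7 brain reads. Peak 26 (chr8:121084157-121084342), whose centre lies 137 bp before Foxf1, gave 27.0, 20.5 and 32.9 RPM in lung at 50 nuclei and 24.4, 48.3 and 66.0 RPM in lung at 200 nuclei, against 10.9 and 3.13 RPM in brain at 50 nuclei and 0 and 6.44 RPM in brain at 200 nuclei. Here too the tissues did not overlap, with means of 36.5 ± 17.4 RPM (SD, n = 6) and 5.13 ± 4.69 RPM (SD, n = 4) in a 7.12-fold ratio over 8 brain reads.

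Between these, peak 25 (chr8:121083703-121083838) lies outside both genes and 616 bp from Foxf1. It had 18.5, 0 and 0 RPM in lung at 50 nuclei and 22.2, 21.2 and 31.5 RPM in lung at 200 nuclei, against 19.2 and 6.26 RPM in brain at 50 nuclei and 2.51 and 0 RPM in brain at 200 nuclei, and the tissues overlapped. The sign of its fitted log2 fold of lung over brain was not stable, at -1.21 to 3.41 over the 19 settings. Peak 23 (chr8:121073343-121073451), inside Fendrr, had 17.6 ± 18.4 RPM in lung (SD, n = 6) and 3.74 ± 3.11 RPM in brain (SD, n = 4), with a high value of 54.8 RPM in lung 50-nuclei replicate 3. Per kb of peak, lung levels were 220 RPM at the Fendrr start and 197 RPM next to Foxf1, below the 286 and 276 RPM of the distant peaks 13 and 14. The corresponding brain levels per kb were 20.1, 27.7, 27.9 and 18.0 RPM, thus between 18.0 and 27.9 RPM per kb at all 4.

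**Figure D4:**
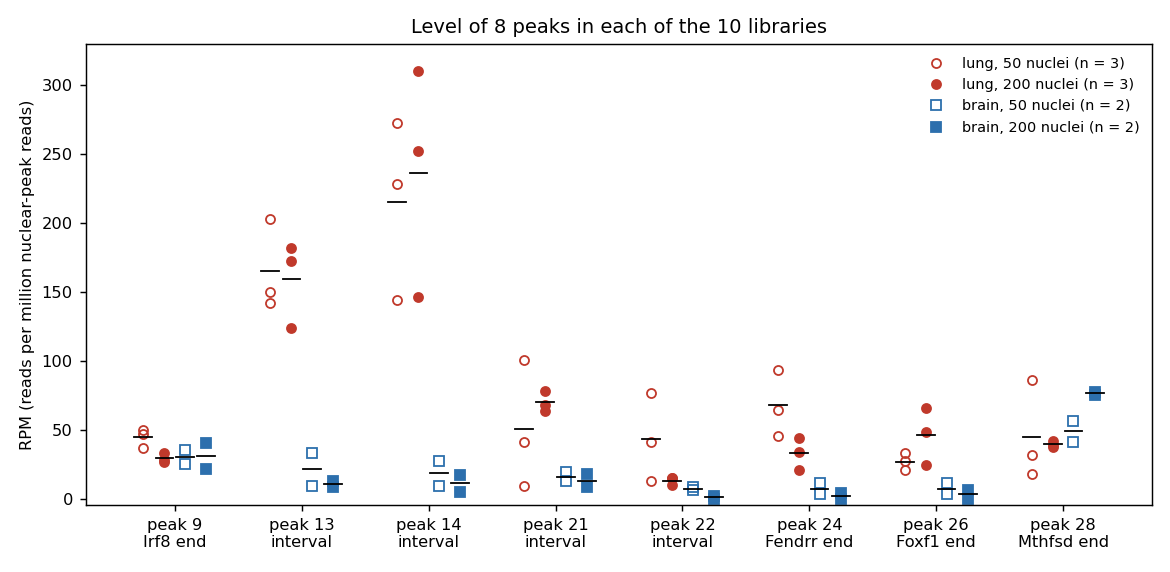
Level in RPM of 8 peaks in each library: peak 9 at Irf8, peaks 13, 14, 21 and 22 of the interval, peak 24 at Fendrr, peak 26 next to Foxf1 and peak 28 at Mthfsd, with circles for lung and squares for brain, open for 50 and filled for 200 nuclei, and short lines for group means. Lung and brain points do not overlap at peaks 13, 14, 22, 24 and 26, and they overlap at peaks 9, 21 and 28.

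The flanks of the window hold genes of other functions. Peak 3 (chr8:120668060-120668399) lies over the neighbouring ends of Emc8, a subunit of the membrane protein insertion complex of the endoplasmic reticulum, and Cox4i1, a subunit of cytochrome c oxidase. It gave 51.2, 32.3 and 141 RPM in lung at 50 nuclei and 65.4, 71.0 and 69.3 RPM in lung at 200 nuclei, against 62.9 and 65.8 RPM in brain at 50 nuclei and 100.3 and 75.2 RPM in brain at 200 nuclei. The tissues overlapped, and the fitted log2 fold of lung over brain was -0.08 ± 0.34 (SE). Peaks 1 and 2, beside it in Emc8, and peaks 4 to 7, between Cox4i1 and Irf8, had lung means of 1.77 to 7.52 RPM and brain means of 4.93 to 16.4 RPM. Peak 5 (chr8:120680552-120680642) had the highest of these brain means, with 25 reads in brain and 18 in lung, and a log2 fold of lung over brain of -3.42 ± 1.16 (SE).

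Beyond Foxf1, Mthfsd encodes a protein with a domain of folate metabolism enzymes, and Foxc2 and Foxl1 encode further forkhead factors of the same gene cluster. Peak 28 (chr8:121108222-121108488) at the start of Mthfsd gave 31.3, 17.6 and 85.8 RPM in lung at 50 nuclei and 38.8, 41.7 and 37.4 RPM in lung at 200 nuclei, against 41.0 and 56.4 RPM in brain at 50 nuclei and 75.2 and 77.3 RPM in brain at 200 nuclei. In lung, 4 of the 6 libraries lay below every brain library, and the tissues overlapped through lung 50-nuclei replicate 3 and 200-nuclei replicate 2. Peak 27 (chr8:121092235-121092424), inside Mthfsd, had 39.8, 5.87 and 38.3 RPM in lung at 50 nuclei, 26.6, 19.0 and 28.0 RPM in lung at 200 nuclei, 38.3 and 18.8 RPM in brain at 50 nuclei and 10.03 and 15.0 RPM in brain at 200 nuclei. It showed no separation of the tissues.

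Peak 29 (chr8:121113376-121113566), 2700 bp from Foxc2, had 18.5, 0 and 65.7 RPM in lung at 50 nuclei and 30.5, 17.6 and 11.4 RPM in lung at 200 nuclei, against 13.7 and 21.9 RPM in brain at 50 nuclei and 40.1 and 23.6 RPM in brain at 200 nuclei, again with overlap. Peaks 30 and 31, 2277 and 222 bp from Foxl1, had lung means of 2.35 and 10.2 RPM and brain means of 10.7 and 4.78 RPM. In none of the 5 peaks beyond Foxf1 did the lung libraries all lie above the brain libraries. Just outside the window, the nearest peak on the far side (chr8:121201037-121201334, 1.19 kb past the edge) had a mean of 30.7 RPM in lung (n = 6) and 2.05 RPM in brain (n = 4). The nearest peak on the near side (chr8:120589039-120589592) gave 300.05 ± 43.7 RPM for lung (SD, n = 6) and 306 ± 14.5 RPM for brain (SD, n = 4).

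Across the window, 5 members (peaks 13, 14, 22, 24 and 26) had all 6 lung libraries above all 4 brain libraries, where 4.93% of all nuclear peaks did. No member had all brain libraries above all lung libraries, but the share of all nuclear peaks that did is not given here. In edgeR's fit over all 37466 tested peaks, 6 of the 31 members passed an adjusted p of 0.05 between brain and lung, where 10.2% of all tested peaks did. All 6 (peaks 13, 14, 21, 22, 24 and 26) were higher in lung, where the background was 4.39%, and 0 of 31 were higher in brain, where it was 5.76%. The window was selected on this contrast, so nothing is read from these counts. The median log2 fold of lung over brain was 0.49 over the 31 members and -0.07 over all tested peaks, with 19 members above 0 and 12 below. By zone the median was -0.73 before Irf8, 0.23 in the Irf8 zone, 2.16 in the interval, 2.59 at Fendrr and Foxf1 and -0.02 beyond Foxf1.

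The fitted log2 folds of lung over brain were 3.40 ± 0.36 (SE) at peak 13, 3.94 ± 0.38 (SE) at peak 14 and 3.46 ± 0.68 (SE) at peak 24. These 3 peaks passed the threshold under all 19 settings, leaving out any 1 library included. The 19 count the main fit itself and 1 fit that changed the folds but not p. They do not count library totals, where these 3 peaks passed too. Peak 26 had 2.79 ± 0.73 (SE) and fell short of the threshold without lung 200-nuclei replicate 3 (2.60), without brain 50-nuclei replicate 2 (2.50) or without brain 200-nuclei replicate 1 (2.33). Without brain 200-nuclei replicate 2 the fold was 5.18 at peak 26 and 5.57 at peak 24, both past the threshold. Peak 21 had 2.03 ± 0.52 (SE) and fell short without brain 50-nuclei replicate 2 (1.91), without brain 200-nuclei replicate 2 (1.83) or with a replicate block (1.61). Peak 22 had 2.92 ± 0.93 (SE) and fell short without any 1 of the 3 lung 200-nuclei libraries or of the 4 brain libraries, with 2.49 to 4.57, with the block (2.52) and with edgeR's default filter (2.86). With the sparse lung 50-nuclei replicates 2 and 3 both left out, peak 22 fell short too (2.16). In that fit 10 members passed, beside 22.3% of all tested peaks, and peaks 13, 14, 21, 24 and 26 were among the 9 higher in lung. The member higher in brain there was peak 5, which passed in 5 of the settings, and peak 30 passed as higher in brain without lung 50-nuclei replicate 1.

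**Figure D5:**
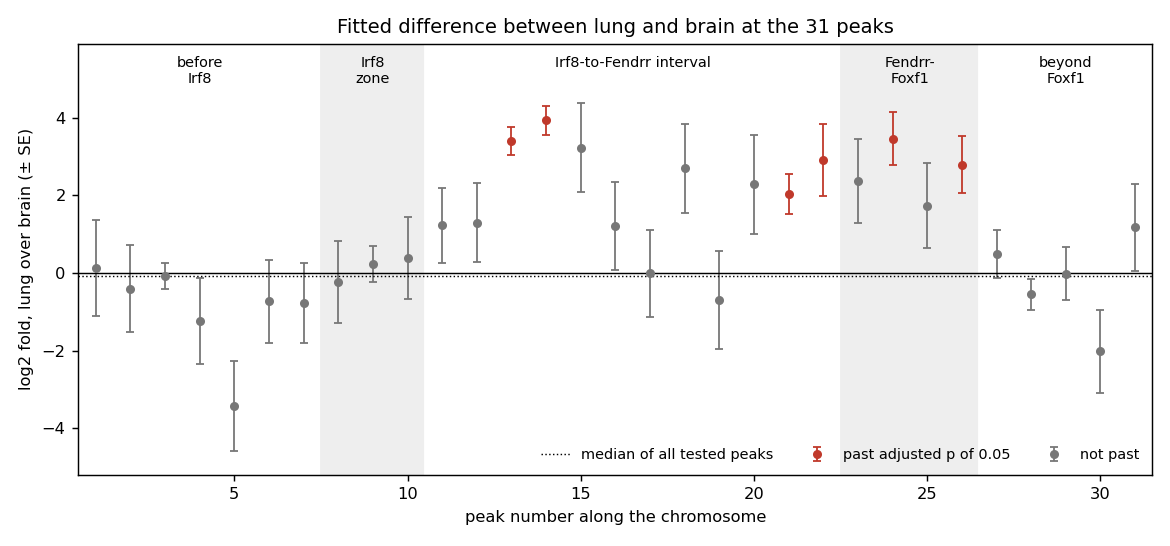
Fitted log2 fold of lung over brain at each of the 31 peaks, numbered along the chromosome, with bars for 1 SE on each side and shading for the Irf8 zone and for Fendrr and Foxf1; filled red points are the 6 peaks past an adjusted p of 0.05, and the dotted line is the median of all tested peaks at -0.07. The 6 peaks lie in the Irf8-to-Fendrr interval (13, 14, 21 and 22) and at Fendrr and Foxf1 (24 and 26).

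The 6 peaks past the threshold were higher in lung at both capture sizes. They were called on the mean of the folds at both sizes, so this agreement is largely built in and nothing is read from it. At 11 of the 31 members the sign of the fold differed between the sizes. These 11 included peak 25, with a log2 fold of lung over brain of -0.89 at 50 nuclei and 4.36 at 200 nuclei. Among libraries of 50 nuclei, 2 of the 31 members (peaks 13 and 14) passed the threshold and were higher in lung, beside 0.488% of all tested peaks. Among libraries of 200 nuclei, 4 members (peaks 13, 14, 24 and 26) did, beside 1.24%. At peak 13 the log2 fold of lung over brain was 2.80 ± 0.49 (SE) at 50 nuclei and 4.01 ± 0.53 (SE) at 200 nuclei, and at peak 14 it was 3.43 ± 0.52 (SE) and 4.45 ± 0.54 (SE). At peak 26 it was 1.78 ± 0.99 (SE) and 3.81 ± 1.06 (SE). The larger folds at 200 nuclei were not shown to differ from those at 50 nuclei: 0 of 31 members passed the test of the tissue-by-size interaction, and 0% of all tested peaks did.

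The size of the capture was not used to choose the window, and it could be tested. No member passed the threshold: 0 of 31 passed between 200 and 50 nuclei in lung and 0 of 31 in brain, beside 0% of all tested peaks in each. With so few libraries of each size, 3 in lung and 2 in brain, these tests cannot show that size had no effect. By edgeR's unadjusted p at the same cutoff, 0, 0 and 1 of the 31 members passed in lung, in brain and for the interaction, where the 1 was peak 25, beside 8.20%, 1.14% and 4.15% of all tested peaks. DESeq2's Wald test passed 0 members in each of these 3 comparisons. Log2 folds of 200 over 50 nuclei in lung were 0.19 ± 0.34 (SE) at peak 13, 0.33 ± 0.34 (SE) at peak 14, -0.40 ± 0.56 (SE) at peak 9, -0.79 ± 0.60 (SE) at peak 24 and 1.00 ± 0.70 (SE) at peak 26. At each of these peaks the difference was less than 1.5 SE. In RPM, every lung library of 50 nuclei lay above every one of 200 nuclei at peak 9 (36.5 to 49.8 against 26.7 to 32.9). The same held at peak 24 (45.5 to 93.1 against 21.1 to 43.9) and at peak 1 (8.81 to 14.6 against 0 to 5.86). Peak 25 separated in the opposite direction, with 0 to 18.5 RPM at 50 nuclei and 21.2 to 31.5 RPM at 200 nuclei. The sizes overlapped at peaks 13, 14 and 26. How many of all peaks separate by size in either direction was not counted, so nothing is read from these separations.

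Summed levels by zone did not pass the threshold over size either, but the exact permutation tests left little room for it. The smallest p they could give was 0.0167 over 120 arrangements. After adjustment over 5 tests, a single zone at that p would still miss the threshold unless other tests were also low. These misses therefore cannot show that size had no effect. The interval had 573 ± 125 RPM (SD, n = 3) at 50 nuclei and 576 ± 155 RPM (SD, n = 3) at 200 nuclei in lung, and 115 ± 73.7 RPM (SD, n = 2) and 58.7 ± 5.05 RPM (SD, n = 2) in brain. With size permuted within tissue, the mean log2 difference of -0.40 missed the threshold (exact permutation test, two-sided, p = 0.383; 0.638 adjusted over 5 tests). At Fendrr and Foxf1 the sums were 125 ± 48.9 and 115 ± 32.8 RPM in lung (SD, n = 3 each) and 28.4 ± 18.0 and 12.5 ± 3.54 RPM in brain (SD, n = 2 each), with a log2 difference of -0.57 (exact permutation p = 0.267; 0.638 adjusted).

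In the Irf8 zone the sums were 76.5 ± 43.1 and 43.2 ± 3.87 RPM in lung (SD, n = 3 each) and 45.2 ± 1.89 and 49.1 ± 29.9 RPM in brain (SD, n = 2 each). The log2 difference was -0.36 (exact permutation p = 0.35; 0.638 adjusted), and without brain 200-nuclei replicate 1 it came to -0.69 (exact permutation p = 0.0167, the smallest possible over 60 arrangements, not adjusted). Over all members the log2 difference of 200 from 50 nuclei was -0.09 (exact permutation p = 0.683; 0.833 adjusted). The share of members with a read, after thinning every library to 319307 nuclear reads, was 71.0% ± 14.8 and 84.9% ± 3.72 in lung (SD, n = 3 each) and 95.2% ± 2.28 and 77.4% ± 4.56 in brain (SD, n = 2 each) at 50 and 200 nuclei. It was thus higher at 200 than at 50 nuclei in lung and lower in brain. Averaged over tissues it differed by -1.88 percentage points (exact permutation p = 0.833, and 0.833 adjusted). Opposite shifts cancel in this average, so the test cannot show a size effect within either tissue.

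Markers of endothelium, lung epithelium and neurons also separated the tissues, while those of mesenchyme, oligodendrocytes and myeloid cells overlapped. Endothelial markers, whose cells use Foxf1 in the lung, summed to 1160 to 1746 RPM in lung libraries and 372 to 575 RPM in brain libraries, with peaks at all 8 genes. Lung epithelial markers summed to 332 to 493 RPM in lung and 133 to 167 RPM in brain (7 of 8 genes with a peak). Mesenchymal markers, of the other lung lineage that uses Foxf1, had a peak at 4 of 6 genes (none at Pdgfra and Fgf10) and overlapped, at 20.5 to 69.9 RPM in lung and 25.8 to 76.6 RPM in brain. Neuronal markers summed to 21.9 to 99.8 RPM in lung and 279 to 376 RPM in brain, and oligodendrocyte markers to 129 to 287 and 256 to 397 RPM (4 of 6 genes with a peak). No marker gene with a peak was at 0 in either tissue, and the part of any of these cell types in the levels around Foxf1 was not tested.

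Among peaks of genes tied to Foxf1 in vessels, those past the threshold were all higher in lung. Of 56 peaks assigned to 13 vessel genes, 18 passed as higher in lung and 0 as higher in brain (32.1% past the threshold). Over all tested peaks 4.39% were higher in lung and 5.76% in brain. The list's median log2 fold of lung over brain was 1.61. This list was chosen with earlier results of these data known. It shares Cdh5, Pecam1, Tie1 and Kdr with the endothelial markers above, so it is given as a description only. Among the 18 were peaks at Cdh5 and Pecam1, adhesion molecules of endothelial junctions, with 2.80 ± 0.44 (SE) and 2.60 ± 0.46 (SE). Others were at the receptor S1pr1 for sphingosine 1-phosphate with 3.30 ± 0.52 (SE), and at the VEGF receptor Flt1 with 3.51 ± 0.61 (SE). Of 18 peaks at the lung mesenchyme partners, 4 were higher in lung and 1 in brain (median 0.71). The partners include every mesenchymal marker above, Wnt2 among them, so the marker sums and these counts are not separate observations. The T-box factor Tbx3 had 203 ± 45.0 RPM in lung (SD, n = 6) and 45.2 ± 11.5 RPM in brain (SD, n = 4), Tbx2 and the signalling gene Wnt2b were also past the threshold in lung, at log2 folds of 2.67 ± 0.63 (SE) and 2.78 ± 0.74 (SE), and a peak at Wnt2 was past it in brain (-3.98 ± 1.32, SE).

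The other lists gave few calls. Among 34 peaks of the Hedgehog axis above Foxf1, 4 were higher in lung, all at Sufu, an inhibitor of the pathway, and 0 in brain, with a median of -0.43. Of 46 peaks at Irf8 partners and myeloid genes, 3 were higher in lung and 2 in brain (median 0.37), with the interferon regulatory factor Irf1 at 1.03 ± 0.33 (SE) and Sall1, a factor of microglia and of neural progenitors, at -6.44 ± 1.01 (SE). These genes include every myeloid and microglia marker used earlier. Irf2, another interferon regulatory factor, had peaks past the threshold in both directions, 2 higher in lung (the lead one at 1.54 ± 0.39, SE) and 1 higher in brain (-4.72 ± 1.22, SE). Of 60 peaks at other forkhead genes, 4 were higher in lung and 2 in brain (median -0.20), among them Foxk1, Foxp1 and Foxo3 in lung (2.68 ± 0.37, 3.33 ± 0.58 and 1.25 ± 0.40, SE). The share past the threshold was 27.8% for the mesenchyme partners, 11.8% for the Hedgehog axis, 10.9% for the Irf8 partners and 10.0% for the forkhead genes, where it was 10.2% over all tested peaks.

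Among the 7822 gene-end peaks with a mean of at least 20 RPM, those whose log2 levels followed peak 24 most closely over the 10 libraries were at Trim16 (Pearson r = 0.978), Dusp4 (0.974), Osbpl2 (0.969), Btbd19 (0.968) and Itga1 (0.966). All 5 were higher on average in lung, for example 60.6 ± 25.6 against 13.6 ± 13.5 RPM at Trim16 (SD, n = 6 and 4). Those closest to the Irf8 start, peak 9, were at Zfp35 (0.877), Rhebl1 (0.837), Purb (0.826), Golga3 (0.822) and Syne3 (0.821). At Zfp35 the levels were 20.8 ± 8.34 RPM in lung and 20.2 ± 7.17 RPM in brain (SD, n = 6 and 4). These are descriptions over libraries that share their scaling, picked as the highest of many.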

How the data were processed

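ATAC-seq libraries of lung (n = 6) and brain (n = 4) were deposited by the authors as 1 table of whole-number read counts per peak, with 37513 rows and 10 library columns, all of them used here. Reads were processed on build mm10, per the submitters' processing notes, which name MACS2 2.2.7.1, Bowtie2 2.4.5, SAMtools 1.14, Picard, Trimmomatic 0.36, R 4.1.0, bcl2fastq 2.20 and deepTools 3.1.3 without their roles. Not given in the sources used here are the merging of peaks, the counting program, any removal of duplicates, any Tn5 shift, and whether starts count from 0 or 1. Coordinates are printed as deposited. Duplicates left in the counts would widen the spread between libraries of few nuclei.

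The members and lists were chosen with earlier results of these data known. Gene positions are those of RefSeq for GRCm38.p6, and distances run from a peak's centre to the gene's nearer end. Zones reach 1000 bp past the genes. A peak belonged to a gene it overlapped or that ended within 5000 bp. Levels were computed per 1000000 reads in the 37511 nuclear peaks. Total reads were 573596 to 4083252 per lung library and 5519395 to 10973796 per brain library. edgeR 4.0.16 quasi-likelihood tests (R 4.3.3, TMM, 4 group means) used all 37466 rows with at least 10 reads, with Benjamini-Hochberg adjustment over all of them at 0.05. The common dispersion was 0.350. Both this step and the exact permutation tests were tested on simulated data. Per-library values are given for peaks within 1000 bp of an end of Irf8, Fendrr or Foxf1 and for the 10 members with the highest mean. Likeness is Pearson's r of log2(RPM + 1) over 10 libraries. From each list up to 4 peaks past the threshold, 1 per gene, with the lowest p are named, except 1 gene that is not reported here. Alternatives were other scalings, filters, DESeq2 1.42.0, a replicate block and leaving out libraries. Sequences of Foxf1 and of the peaks away from gene starts are not used here.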

Additional observations from a re-analysis of the deposited data

Results flagged for a closer look

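Each of the 31 members, the Irf8 zone, the interval, the Fendrr and Foxf1 zone and the window as a whole were looked at in the 6 lung and the 4 brain libraries for a single library far from the rest, by Dixon's criterion. Of 70 such sets 9 held one, where about 1 in 20, or 3.5, would be the rate by chance for independent, normally distributed values. The sets here include sparse counts with zeros, and sums that contain member peaks. This rate is therefore only nominal, and no excess is read from the 9. In lung 50-nuclei replicate 3, peak 3 at Emc8 and Cox4i1 reached 141 RPM (77 reads) where the next lung library had 71.0 RPM, peak 23 in Fendrr reached 54.8 RPM (30 reads, next 12.4 RPM), and peak 28 at Mthfsd reached 85.8 RPM (47 reads, next 41.7 RPM). In lung 50-nuclei replicate 2, peak 8 before Irf8 reached 79.2 RPM (27 reads, next 7.76 RPM), which also set the Irf8 zone apart at 126 RPM (next 54.0 RPM). In the same library peaks 16 and 20 of the interval each stood at 41.1 RPM (14 reads each, next 14.3 and 11.7 RPM). In brain 50-nuclei replicate 1, peak 13 had 32.8 RPM (12 reads, next 12.5 RPM) and the whole Irf8-to-Fendrr interval 167 RPM (next 62.6 RPM), still below every lung library at both.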

How the results depend on the processing

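The count of members past the threshold between brain and lung, 6 in the report, was 5 to 8 with DESeq2 size factors, DESeq2's Wald test, nuclear peaks only, no filter or edgeR's default filter. It was 27 with library totals alone, a scaling that carries the mitochondrial share and puts the median of all peaks at a log2 of 3.34 toward lung, with 30079 peaks higher in lung and 252 in brain against 1645 and 2158 with TMM. It was 10 without lung 50-nuclei replicates 2 and 3, where 22.3% of all tested peaks passed against 10.2%, and 3 to 8 over the fits leaving out 1 library, lowest without brain 50-nuclei replicate 2, where 4.32% did. With a replicate block it was 4, with peaks 21 and 22 lost. The block has no basis in the labels, and same-numbered libraries deviated together no more than others (r -0.029 to 0.021 over 13 pairs). Deviations from the mean of a brain group mirror each other, so these pairs are not independent and the check cannot exclude pairing. The log2 size difference of the Irf8 zone ran from -0.69 (exact permutation p = 0.0167) to -0.027 over fits without 1 library. A wider zone margin cannot change the sum over all members and was not run for it. No value past its threshold in the report changed sign, but 8 of 18 log2 folds and size differences, all of them short of it there, did so under some alternative, and the cause was not tested. The log2 size difference over all members was 0.033 with TMM library sizes, 0.0098 as a mean of log2(RPM + 1) and -0.24 to 0.064 without 1 library, and that of the Irf8 zone 0.055 as such a mean. The share of members with a read differed by 6.72 percentage points without thinning and by -5.11 to 2.15 without 1 library. The log2 folds of brain over lung with library totals were -3.39 at peak 3, -3.25 at peak 8, -2.94 at peak 28 and -3.40 at peak 29, all past the threshold, and peak 8 had -0.26 with the replicate block. Without 1 library these folds ran from -0.090 to 0.44 at peak 3, -0.32 to 3.92 at peak 8, -3.41 to 1.21 at peak 25 and -0.25 to 0.64 at peak 29. No alternative gave a call of a member by size or interaction. Depth limits the brain most, where 3 reads are 6.44 to 9.40 RPM.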
